A study of Mus musculus with 2 samples.

Results

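The cells described here are late red cell precursors and young red cells of the anaemic mouse spleen that still carried RNA from at least 300 and under 500 genes. They were chosen by counts alone: at least 1000 unique molecular identifiers (UMIs, each standing for 1 captured RNA molecule), at least 300 and under 500 detected genes, at most 10% mitochondrial UMIs, at least 80% of UMIs from haemoglobin genes, and at most 2 UMIs summed over the macrophage genes C1qa, C1qb, C1qc and Vcam1. Of 22504 barcodes with 1000 or more UMIs, 2753 met the rule. They were 1275 of 9429 PHZ barcodes and 1478 of 13075 bleeding barcodes. Because gene number and haemoglobin share chose these cells, their levels are given as a description, with no test.

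The study profiled live spleen cells of C57BL/6 mice made anaemic for 1 month, with anaemia induced in 2 ways. One group was injected with PHZ (the usual abbreviation of phenylhydrazine, an oxidant that destroys red cells inside the body) every 3 days, and the other was bled every 3 days, which removes red cells and their iron. Each group had 1 droplet library (10x Genomics 3′ chemistry). Untreated mice were not analysed here, and the number, age and sex of the mice behind each library were not given in the sources used here. Treatment, mouse and library therefore cannot be told apart, and the 95% intervals below cover counting error only. No test across samples was possible.

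In the last steps of red cell formation a precursor fills with haemoglobin, condenses and expels its nucleus, and becomes a reticulocyte, which then removes its mitochondria and ribosomes. New transcription ends on the way, so that gene number falls and a short list of stable or late messages comes to dominate. In anaemic mice the spleen is a major site of this process. Precursors short of haem activate the kinase HRI (Eif2ak1), which slows translation and turns on Atf4, and they take up iron through the transferrin receptor, Tfrc.

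The matrices held 128130213 PHZ UMIs and 145260780 bleeding UMIs. The chosen PHZ cells had a median of 15473 UMIs and 375 genes, and the bleeding cells of 13458 UMIs and 350 genes. Without haemoglobin the medians were 1238 and 1103 UMIs, and the sums were 1623777 and 1701779 UMIs. Levels below are CPM, the UMIs of a gene summed over the cells of a library and scaled to that sum, and ratios are CPM in PHZ over CPM in bleeding with exact counting intervals. No barcode sequence was shared among the chosen cells of the libraries. RNA of other cells was present in most of them: the summed markers of B, plasma, T, NK, neutrophil, monocyte, dendritic, platelet and stromal cells had a median of 3 UMIs per PHZ cell and 4 per bleeding cell, with highest values of 12 and 13.

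Of the 17 late erythroid markers, Bpgm, Alas2 and Slc4a1 were present in nearly every cell, while Tfrc, Xpo7 and Isg15 were not. Tfrc was found in 27.8% of PHZ cells and 5.82% of bleeding cells, Xpo7 in 56.3% and 36.9%, and Isg15 in 86.7% and 72.7%. Summed, the late markers were above their free RNA level and the early ones below. The data therefore did not go against the label of late erythroid cells. Bpgm, which makes the bisphosphoglycerate that lowers haemoglobin's oxygen affinity, had at least 1 UMI in 100% of cells of both libraries. Alas2, the first enzyme of erythroid haem synthesis, had one in 100% of PHZ cells and 99.9% of bleeding cells. Slc4a1, the band 3 anion exchanger of the red cell membrane, had one in 99.1% and 98.4%. In B lymphocyte barcodes, which should lack these messages and were deeper (medians of 5901 and 5759.5 UMIs without haemoglobin), Bpgm was found in 21.98% in PHZ and 18.9% in bleeding and Alas2 in 13.6% and 9.31%. The 17 late markers summed to 152600 CPM in PHZ cells and 162200 in bleeding cells, against 19490 and 12070 CPM in barcodes of 10 to 100 UMIs, taken here as the level of free RNA. The 8 early markers summed to 346.1 CPM in PHZ cells and 196.3 in bleeding cells (1.76, 1.54 to 2.03), against 2633 and 1345 CPM in free RNA. Most of their UMIs were from the proliferation genes Mki67, with 378 in PHZ and 213 in bleeding, and Top2a, with 84 and 42, and from the carbonic anhydrase Car1, with 75 and 65. Of the others, Cd34 had no UMI in either library, Gata2 had 1 in PHZ and 0 in bleeding, Kit 6 and 1, Myb 13 and 8, and Cd9 5 and 5.

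Per cell, Bpgm had a lowest, median and highest value of 6, 39 and 104 UMIs in PHZ cells and of 2, 43 and 115 in bleeding cells. Its level was 31750 CPM in PHZ and 38990 CPM in bleeding, a ratio of 0.814 (0.805 to 0.824). Mkrn1, a ubiquitin ligase abundant in reticulocytes, was also lower in PHZ, at 27770 against 32040 CPM (0.867, 0.856 to 0.877). Alas2 differed less, with 16090 CPM in PHZ and 17230 CPM in bleeding (0.934, 0.919 to 0.950). Slc4a1 ran the other way, with a median of 10 UMIs per PHZ cell and 6 per bleeding cell, or 8218 and 6048 CPM (1.36, 1.32 to 1.39). Isg15, a ubiquitin-like protein induced by interferon, had the largest ratio of these 5 markers: 9857 CPM in PHZ and 6094 CPM in bleeding (1.62, 1.58 to 1.66). The ranges of single cells overlapped between the libraries for each of the 5.

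**Figure D1:**
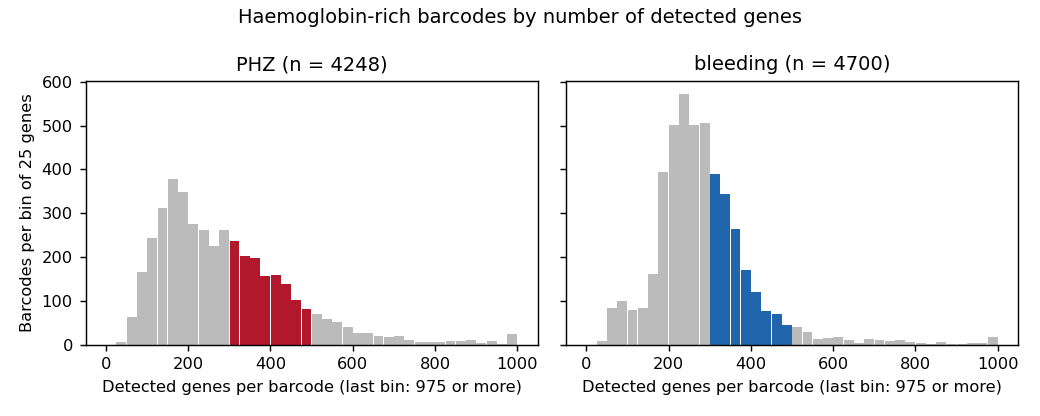
Haemoglobin-rich barcodes by the number of genes detected in them, in bins of 25 genes, for the PHZ library (left, 4248 barcodes) and the bleeding library (right, 4700 barcodes). Coloured bars are the chosen cells, 1275 in PHZ and 1478 in bleeding, which lie on the falling side of both distributions with no gap at either limit.

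These cells were 13.5% of PHZ barcodes with 1000 or more UMIs (exact binomial interval 12.8 to 14.2%) and 11.3% of bleeding ones (10.8 to 11.9%), a ratio of 1.20 (1.11 to 1.29). The ratio turned to 0.962 (0.891 to 1.04) when the share was taken of haemoglobin-rich barcodes, 30.0% in PHZ and 31.2% in bleeding. Within the window the ratio was 0.942 for cells with under 400 genes and 2.15 for those with 400 or more, and the median was 375 genes in PHZ cells and 350 in bleeding cells. The neighbouring haemoglobin-rich barcodes with 500 or more genes were 4.55% in PHZ and 1.71% in bleeding (2.66, 2.25 to 3.14), and those with under 300 genes were 27.0% and 22.9% (1.18, 1.12 to 1.24).

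The limits on gene number cut a continuous run. At the lower one, the 191 PHZ cells with 300 to under 320 genes had 37551 CPM of Bpgm, against 36971 in the 206 barcodes just outside with 280 to under 300. In bleeding the cells inside had 43523 CPM against 43907 in the 405 barcodes outside. At the upper one, the 72 PHZ cells with 480 to under 500 genes had 26940 CPM of Bpgm against 23236 in the 56 barcodes with 500 to under 520. In bleeding, 40 cells inside had 32846 CPM and 34 barcodes outside had 33465. Few barcodes lay near the haemoglobin limit. Just inside, 1 PHZ cell and 0 bleeding cells had 80 to under 82%. Just outside, 3 PHZ barcodes and 1 bleeding barcode had 78 to under 80%. Of 1432 PHZ and 1593 bleeding barcodes with 300 to under 500 genes, 1275 and 1484 met this limit.

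Among the 15 messages with the highest mean level outside haemoglobin were the predicted gene Gm42418, which overlaps a ribosomal RNA repeat, then polyubiquitin Ubb, Bpgm, Mkrn1, the ferritin light chain Ftl1, glutathione peroxidase Gpx1, Cmss1, Alas2, ornithine decarboxylase antizyme Oaz1, carbonic anhydrase Car2, Sec61g, the poly(A) binding protein Pabpc1, the translation factor Eif5 and mitochondrial mt-Co1. Ubb had 35550 CPM in PHZ and 41030 in bleeding, and Ftl1 had 31890 and 27880. The 10 most abundant genes took 26.7% of the UMIs without haemoglobin in PHZ and 27.5% in bleeding. That share lay between the bands on either side, at 35.3% and 33.2% under 300 genes and 18.6% and 18.3% at 500 or more. Ribosomal protein messages were 4.69% and 5.02% and mitochondrially encoded ones 2.80% and 2.97%.

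Haemoglobin was a median of 91.8% of UMIs in both libraries. Among globin UMIs, Hbb-bs, the major adult beta chain, took 46.9% in PHZ and 46.7% in bleeding, Hbb-bt 15% and 15.5%, Hba-a1 21.6% and 21.2%, and Hba-a2 16.5% in both. The Hba genes are near-identical copies, as are the Hbb genes, so the split within each pair is uncertain. Beta over alpha UMIs had a median per cell of 1.63 in PHZ and 1.64 in bleeding. The same ratio of sums was 1.62 and 1.65 in these cells, against 1.88 and 1.83 in the band under 300 genes. Globin composition differed by little between the libraries.

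Compared with the haemoglobin-rich barcodes of 500 or more genes, these cells were poor in nuclear RNA and richer in a few late messages. The bands were cut by gene number, so this is a description of where the window lies. A gene was counted when its interval bound lay beyond 1.5-fold in both libraries, which held for 5 of 1954 genes upward (0.256%) and 420 downward (21.5%). The 5 were Ubb (1.73-fold in PHZ and 1.81-fold in bleeding), Bpgm (1.69 and 1.74), Cmss1 (1.68 and 1.70), Mkrn1 (1.59 and 1.64) and Ccndbp1 (1.61 and 1.77). The 8 leading downward genes included Gm15345, Malat1, 4930422I22Rik, Slc22a23, Dennd4a, Tmem131l and Ypel4. Malat1, an RNA that stays in the nucleus, had 786.4 CPM in PHZ cells against 10900 in the PHZ barcodes of 500 or more genes, and 822.1 against 14130 in the bleeding ones. A minority of that band carried it: 86 of 429 PHZ barcodes held 11316 of 11774 UMIs of the nuclear RNA list. In bleeding, 77 of 224 held 6889 of 7287. These barcodes had at least 1% of their UMIs without haemoglobin from the list. Dennd4a had 170.6 against 1732 CPM in PHZ and 145.7 against 1977 in bleeding. The free RNA barcodes held 10260 and 13390 CPM of Malat1, above the chosen cells.

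Against the barcodes with under 300 genes the larger change was upward, with 166 of 2505 genes (6.63%) higher and 4 (0.16%) lower in both libraries. Purine nucleoside phosphorylase Pnp had the largest bound, at 771.0 against 73.8 CPM in PHZ and 508.3 against 59.2 in bleeding. Also higher was the haem-sensing kinase Eif2ak1 (445.9 against 101.5 CPM in PHZ, 287.3 against 58.7 in bleeding). Ppp1r15a, which reverses the action of that kinase, was 5.37-fold higher in PHZ and 5.04-fold in bleeding. The leading 8 also included Tcp11l2, the proton pump subunit Atp6v1e1, the mitochondrial peroxiredoxin Prdx3 and Dohh, which modifies the factor eIF5A. The 4 lower genes were the initiation factor Eif1 (0.472 in PHZ and 0.517 in bleeding), Mthfd2 (0.463 and 0.304), Camk1d and Gng5.

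**Figure D2:**
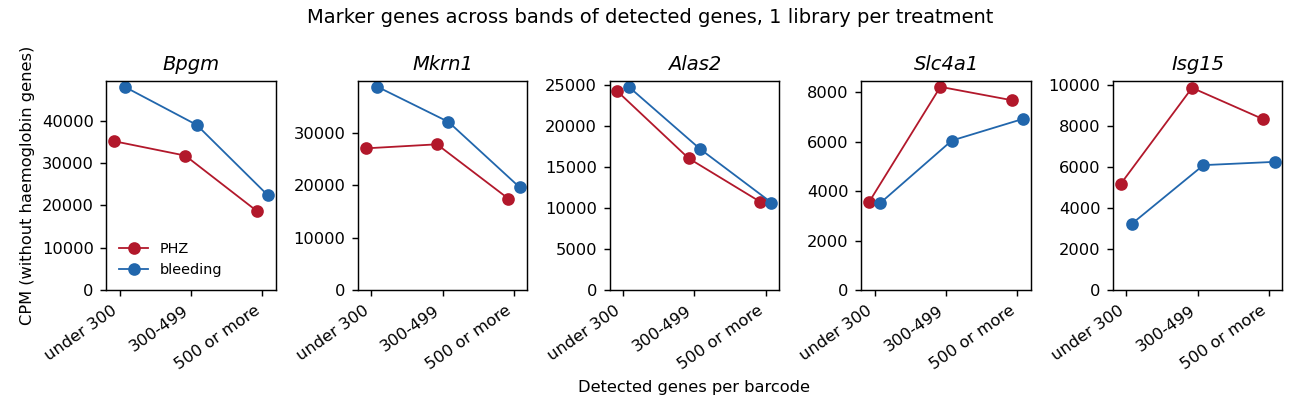
Levels of the 5 marker genes (CPM of UMIs without haemoglobin) in haemoglobin-rich barcodes with under 300, 300 to under 500 and 500 or more genes, in the PHZ library (red, left point) and the bleeding library (blue, right point), 1 library each. Bpgm and Alas2 fell with gene number in both libraries, while Slc4a1 and Isg15 were lowest in the band under 300 genes, at 3566 CPM in PHZ and 3533 in bleeding for Slc4a1 and 5182 and 3252 for Isg15.

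The markers differed in where along this run they peaked. Bpgm had 35150, 31750 and 18740 CPM in PHZ and 47870, 38990 and 22370 CPM in bleeding, from the band under 300 genes upward. Slc4a1 had 3566, 8218 and 7679 CPM in PHZ and 3533, 6048 and 6923 CPM in bleeding. Thinned to 250 UMIs without haemoglobin, the chosen cells had a median of 132 genes in PHZ and 133 in bleeding, against 116 and 120 under 300 genes (leaving out 430 and 248 shallower barcodes) and 151 and 155 at 500 or more. The bands were cut by gene number, so this order is a description only.

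Between the treatments, 3085 genes with at least 20 UMIs in the higher library were compared. A gene was called when the interval bound nearest 1 lay beyond 1.5-fold, which held for 145 genes higher in PHZ (4.7%) and 201 lower (6.52%). These shares are the background for the counts of called genes in the lists below. Of the 3085, 1615 had a ratio over 1 (52.4%), and the median log2 ratio was 0.03. After subtraction of the free RNA profile at the estimated share, 16.5% of UMIs without haemoglobin in PHZ and 21.7% in bleeding, the split was 226 higher and 54 lower. The share was set by taking all UMIs of 13 genes, immunoglobulin constant regions, Cd74 and Cd79a, as free RNA. The subtraction therefore removes B cell messages by design, and the fall in lower genes is no independent measure of them. Of the 145, 112 were among the 226, and of the 201, 18 were among the 54. Of the 145 higher genes, 68 (46.9%) stood above the free RNA level of PHZ, and of the 201 lower ones 5 (2.49%) stood above that of bleeding. Over all 3085 genes compared, 680 (22.04%) stood above the free RNA level. That share is the background for the counts of genes above free RNA given below.

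The genes with the largest bounds higher in PHZ included stress response factors, the transferrin receptor and an RNA-degrading enzyme. Atf5, a stress-induced transcription factor, had 138 UMIs in PHZ cells and 10 in bleeding cells, or 85.0 and 5.88 CPM, a ratio of 14.5 (7.63 to 30.8). Only 50 PHZ cells and 10 bleeding cells held it, and the 3 PHZ cells with the most carried 21.7% of its UMIs. The ratio was 9.37 in cells with at least 90% haemoglobin and 32.2 in cells with at most 2 UMIs of other cell types. Rexo2, an oligoribonuclease found in mitochondria, was the most abundant of the 14, with 2211 CPM in PHZ and 685.8 in bleeding (3.22, 3.02 to 3.45). It was detected in 80.4% of PHZ cells and 46.1% of bleeding cells, against 25.4% and 25.1% of B lymphocyte barcodes. After thinning the shares were 38.2% and 14.9%, against 1.08% and 1.15% in B lymphocyte barcodes.

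Ccdc189 had 404.6 CPM in PHZ and 84.0 in bleeding (4.82, 4.01 to 5.81), far over its free RNA levels of 20.7 and 6.04 CPM. Ndfip1, an adaptor of ubiquitin ligases, had 591.2 and 136.9 CPM (4.32, 3.74 to 5.0), and Sept1, a septin of the cytoskeleton, 320.9 and 59.9 (5.35, 4.32 to 6.69). Ankrd36 had 203.8 and 46.4 CPM (4.39, 3.43 to 5.69). Tcf25 had 154.6 and 25.3 CPM (6.12, 4.41 to 8.66), and Tgtp2, an interferon-induced GTPase with near-identical relatives, 64.1 and 14.1 (4.54, 2.89 to 7.41). The lysosomal enzyme Gusb had 96.1 and 19.4 CPM (4.95, 3.39 to 7.45), and 3.12 as its ratio among cells with 400 or more genes. Dstn, an actin-severing protein, had 156.4 and 39.4 CPM (3.97, 3.03 to 5.28), with 24.8% of its PHZ UMIs in 3 cells, and a ratio of 7.02 in cells with 400 or more genes.

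Of the 14 leading genes, 10 stood above the free RNA level of the PHZ library and 4 did not: Tfrc, Eif2s2, Atf4 and 1810037I17Rik. Tfrc had 324.6 CPM in PHZ cells and 58.2 in bleeding cells (5.58, 4.49 to 6.99), with 906.4 and 395.5 CPM in the free RNA barcodes. Thinned, 7.61% of PHZ cells and 1.15% of bleeding cells held it, against 0.950% and 0.945% of B lymphocyte barcodes, so its share in bleeding cells was close to that background share. With free RNA subtracted, Tfrc kept 284 UMIs in PHZ and 0 in bleeding. Eif2s2 then had a ratio of 25.1 (204 and 8 UMIs), Atf4 18.3 (223 and 12) and Sept1 8.21 (501 and 60). Ankrd36 was at 8.78 and Atf4 at 8.84 in cells with at most 2 UMIs of other cell types.

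**Figure D3:**
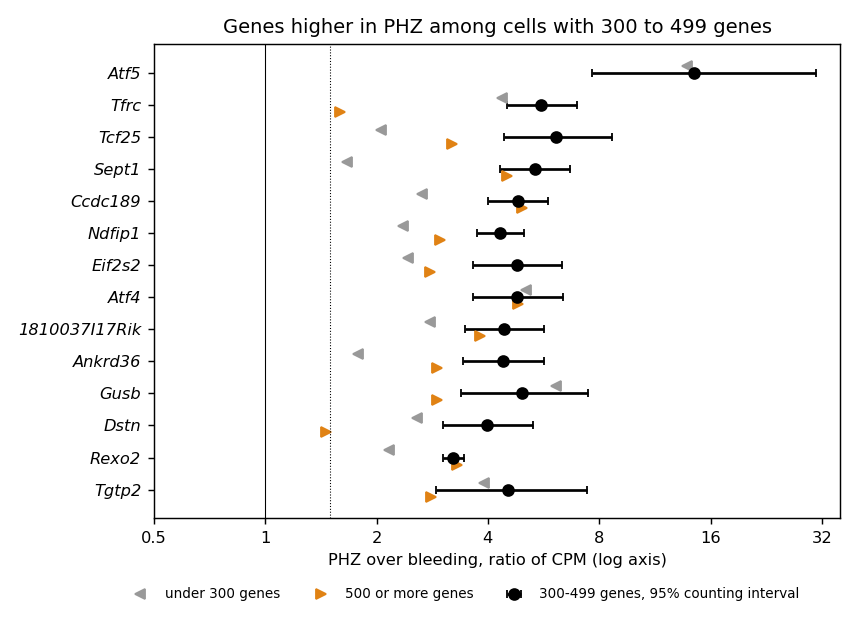
Ratio of CPM, PHZ over bleeding, for the 14 genes with the largest bounds higher in PHZ. Black points with bars are the chosen cells with 95% counting intervals, grey and orange triangles are barcodes with under 300 and with 500 or more genes, and the dotted line is 1.5-fold; the ratios of Atf4 (4.79 in the chosen cells, 5.09 and 4.82 in the bands) lie close together, while Tfrc (5.58) is nearer 1 at 500 or more genes (1.59).

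Genes of the integrated stress response, which lowers general translation and raises amino acid supply, were higher in PHZ as a group. Of 30 genes in the list, 11 passed a mean of 10 CPM, and their median log2 ratio was 1.22, beside 0.07 over all 2950 genes at that level. Of the 11, 6 were called higher and none lower: Atf5, Atf4, Asns, Shmt2, Aars and Mthfd2. Atf4, the central factor, had 177.4 CPM in PHZ and 37.0 in bleeding (4.79, 3.64 to 6.4), and 3.1 as its ratio in cells with 400 or more genes. Asns, asparagine synthetase and an Atf4 target, had 77 UMIs in PHZ and 11 in bleeding (7.34, 3.88 to 15.3). Its ratio was 4.83 in cells with under 400 genes. After background subtraction it was 57.0 (9.84 to 2290), from 58 UMIs in PHZ and 1 in bleeding. Shmt2 and Mthfd2, enzymes of mitochondrial folate metabolism, had ratios of 4.19 (2.06 to 9.40) and 2.32 (1.74 to 3.12). Shmt2 was at 2.71 in cells with 400 or more genes. After subtraction Shmt2 was at 25.6 (4.20 to 1048), from 26 UMIs in PHZ and 1 in bleeding. The upstream kinase Eif2ak1 was nearer, at 445.9 and 287.3 CPM (1.55, 1.38 to 1.74), and the phosphatase subunit Ppp1r15a at 540.7 and 481.8 (1.12, 1.02 to 1.24). Ddit3, a stress factor below the level limit, had 24 UMIs in PHZ and 5 in bleeding. Free RNA held 243.5 and 138.0 CPM of Atf4, 69.9 and 27.8 of Asns and 51.1 and 23.3 of Shmt2, all above the chosen cells. Of Atf5 it held 8.07 and 3.62 CPM, below the chosen cells at 85.0 and 5.88 CPM, the last from 10 UMIs.

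The sum over the list was 1839 CPM in PHZ and 1139 in bleeding. In bands of 50 genes from 300 upward its ratio was 1.91, 1.61, 1.48 and 0.970, and that of Atf4 was 9.81, 3.45, 3.52 and 2.61. Atf5 had 82 UMIs in PHZ and 3 in bleeding in the lowest of these bands, and 3 and 0 in the highest. The 50 PHZ cells with Atf5 had a median of 342 genes, against 376 in the 1225 without it. They had 567.9 CPM of Atf4 against 162.4 and 1687 CPM of Hsp90aa1 against 434.8. The 10 bleeding cells with Atf5 had 0 CPM of Atf4 against 37.3 in the 1468 without it and 90.2 CPM of Hsp90aa1 (1 UMI) against 168.6.

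The promoter of Asns is shown because it holds the element that Atf4 is known to bind. The window runs from 60 bases before the start site to the base before it, at chr6:7693210-7693269 on the minus strand (RefSeq promoter table, GRCm38.p6), written 5′ to 3′ with the match to TGATGNAAN in capitals.
Asns: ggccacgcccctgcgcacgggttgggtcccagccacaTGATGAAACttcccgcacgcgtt
Searched on both strands, this motif is in 3.44% of 32851 mouse promoter windows of 300 bases, counting only the part before the start site. Of the other stress response genes searched, Aars had 1 match, while Atf4, Atf5, Ddit3, Mthfd2 and Shmt2 had none. The match is a description of the letters and not a measured binding site.

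Heat shock chaperones were also higher in PHZ, and a few cells carried part of the difference. Of 28 genes in the list, 21 were measured, with a median log2 ratio of 0.45 beside 0.07, and 4 were called higher and none lower. Hsp90ab1 had 811.7 CPM in PHZ and 346.7 in bleeding (2.34, 2.12 to 2.58), Hsp90aa1 481.0 and 168.1 (2.86, 2.50 to 3.29), Hspa8 153.3 and 77.0 (1.99, 1.61 to 2.48) and Hsph1 22.8 and 6.46 (3.53, 1.76 to 7.66). In PHZ 7 cells, and in bleeding 4, had at least 3% of their UMIs without haemoglobin from this list, and they held 1023 of its 5589 UMIs in PHZ and 178 of 4273 in bleeding. Without them Hsp90aa1 had a ratio of 1.65. It was 1.52 in cells with 400 or more genes and 1.86 at 90% or more haemoglobin. In the band under 300 genes such barcodes numbered 117 in PHZ and 2 in bleeding, and the ratio of Hsp90aa1 there was 12 (10.6 to 13.7). Free RNA held 1008 and 422.0 CPM of Hsp90aa1 and 991.6 and 564.5 of Hsp90ab1, above the chosen cells. The stress-inducible Hspa1a had 1 UMI in PHZ and 0 in bleeding, and Hspa1b 2 and 0.

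Interferon-stimulated genes, which answer to type I interferon in many cell types, were higher in PHZ and varied strongly from cell to cell. Of 31 genes of the list in the files, 21 were measured, with a median log2 ratio of 0.55 beside 0.07, 6 called higher and 1 lower. The 6 were Isg15, Ifi27, Ifit1, Xaf1, Ifih1 and Samhd1. In PHZ, Ifih1 and Samhd1 were not above their free RNA level, while Isg15, Ifi27, Ifit1 and Xaf1 were. Ifi27 had 1879 CPM in PHZ and 1154 in bleeding (1.63, 1.54 to 1.72), Ifit1 155.2 and 81.7 (1.90, 1.54 to 2.35) and Xaf1 115.8 and 51.7 (2.24, 1.73 to 2.92). Rsad2, the antiviral enzyme viperin, was as abundant as Isg15 but closer between the libraries, with 10190 and 8075 CPM (1.26, 1.23 to 1.29), and the factor Irf7 had 487.1 and 382.5 (1.27, 1.15 to 1.42). The 1 lower gene, Ifi27l2a, had 14.2 CPM in PHZ and 57.0 in bleeding, both under its free RNA levels of 69.5 and 183.1, and a ratio of 0.136 when these were subtracted.

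Isg15 ran from 0 to 222 UMIs per PHZ cell with quartiles of 2, 5 and 14, and from 0 to 142 per bleeding cell with quartiles of 0, 2 and 7. It was found in 86.7% of PHZ cells and 72.7% of bleeding cells, against 6.59% and 7.53% of B lymphocyte barcodes. Thinned to 250 UMIs the shares were 62.0% and 45.7%. Rsad2 had quartiles of 6, 10 and 17 UMIs per PHZ cell and 4, 7 and 13 per bleeding cell. As shares of a cell's UMIs without haemoglobin, Isg15 and Rsad2 had a Spearman correlation of 0.571 over 1275 PHZ cells and 0.533 over 1478 bleeding cells. Cells of a library share their capture and free RNA, so this is given as a description. Isg15 had 0.448 and 0.404 with Irf7, and -0.028 and -0.096 with Bpgm.

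When cells were ranked by their Isg15 share, the 318 highest PHZ cells had 17330 CPM of Rsad2 against 5408 at the low end of the ranking, and the 369 highest bleeding cells had 13960 against 4781, each end being 1 in 4 cells. Irf7 had 1213 against 120.1 CPM in PHZ and 1020 against 79.5 in bleeding. The erythroid genes differed little between the same cells: Bpgm had 30790 against 32060 CPM in PHZ and 37050 against 40740 in bleeding, and Slc4a1 8485 against 8184 and 6271 against 6056. The highest cells had a median of 377 genes against 371 in PHZ and 354 against 338.5 in bleeding. In thinned cells the variance of the list's UMIs over their mean was 6.14 in PHZ and 5.40 in bleeding, against 1.17 and 1.16 for haem synthesis genes, which spread little more than counting alone gives.

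**Figure D4:**
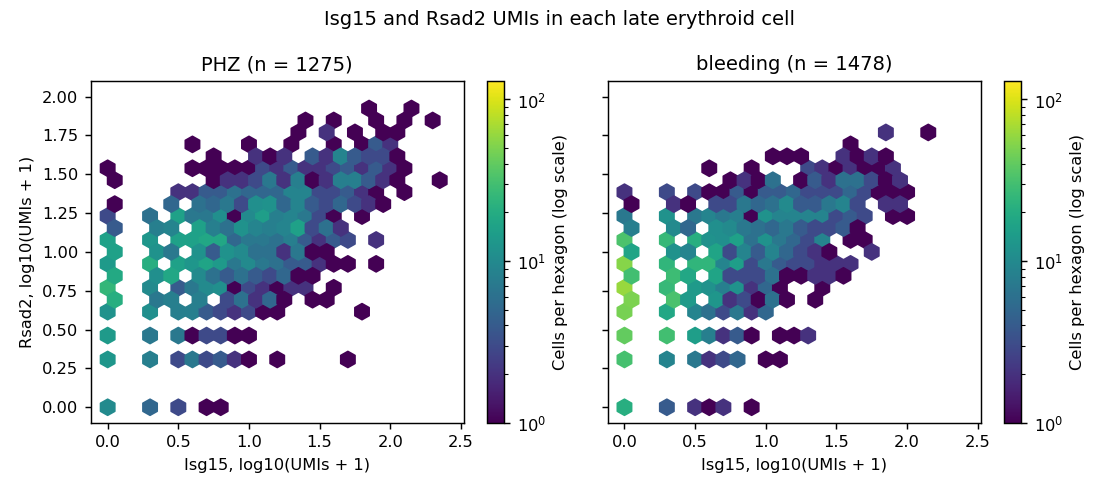
Isg15 (horizontal) and Rsad2 (vertical) in single cells as log10(UMIs + 1), for 1275 PHZ cells (left) and 1478 bleeding cells (right); the colour of each hexagon is the number of cells on a log scale. In both libraries cells with more Isg15 had more Rsad2 (Spearman 0.571 in PHZ and 0.533 in bleeding), and the PHZ cells reach 222 UMIs of Isg15 and the bleeding cells 142.

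The promoters of Isg15, Rsad2 and Ifit1 are shown for the element that interferon-activated factors are known to bind, whose core was searched on both strands as GAAA, any 2 bases and GAAA again. It is in 2.98% of the 32851 promoter windows, counting only the part before the start site. The windows of 60 bases are from RefSeq (GRCm38.p6), written 5′ to 3′ on the gene's strand with matches in capitals, and a match on the other strand shows TTTC at both ends. Isg15 is on the minus strand at chr4:156200869-156200928 (110 to 51 bases before the start), with 3 overlapping matches. Rsad2 is on the minus strand at chr12:26456533-26456592 (140 to 81 before), with 1 match, and Ifit1 on the plus strand at chr19:34640764-34640823 (125 to 66 before), with 2.
Isg15: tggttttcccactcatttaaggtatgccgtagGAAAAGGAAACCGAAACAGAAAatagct
Rsad2: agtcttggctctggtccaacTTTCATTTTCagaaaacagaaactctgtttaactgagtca
Ifit1: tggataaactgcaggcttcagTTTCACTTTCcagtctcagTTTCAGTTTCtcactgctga
Irf7, searched in the same way, had no match. The matches were not tested for binding.

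Several haem synthesis enzymes between the first and last steps were higher in PHZ, while the levels of the first and the last, Alas2 and Fech, were lower. Of 14 genes in the list, 12 were measured, with a median log2 ratio of 0.74 beside 0.07, and 4 were called higher and none lower. Among these were Alad, the second enzyme (3.01, 1.98 to 4.69), Cpox (1.93, 1.63 to 2.29) and Ppox (2.13, 1.68 to 2.70). In PHZ, Alad, Cpox and Ppox were not above their free RNA level. Urod, uroporphyrinogen decarboxylase, had 1684 and 1250 CPM (1.35, 1.27 to 1.43). Fech, which inserts the iron, had 4102 and 4905 CPM (0.836, 0.810 to 0.864). Because Alas2 and Fech make up most of the list, its sum was 23820 CPM in PHZ and 24480 in bleeding, a ratio of 0.973 (0.960 to 0.987) that runs against the sign of the median.

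Iron genes split between uptake, storage and mitochondria. Of 15 genes 9 were measured, with a median log2 ratio of -0.10 beside 0.07, and Tfrc was the 1 called. Taking every gene with a UMI, the median was 0.30, the opposite sign. The ferritin chains, which store iron, were higher in PHZ: Ftl1 at 31890 and 27880 CPM (1.14, 1.13 to 1.16) and Fth1 at 11080 and 8995 (1.23, 1.21 to 1.26). The mitochondrial iron importer Slc25a37 was lower, at 2845 and 4250 CPM (0.669, 0.645 to 0.695), as was Glrx5 of iron-sulphur cluster assembly, at 5092 and 5901 (0.863, 0.838 to 0.889).

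Membrane and skeleton genes were moderately higher, with none past the 1.5-fold rule. Of 23 genes 22 were measured, with a median log2 ratio of 0.24, and 16 of them had ratios over 1, beside 52.4% of all genes. The skeleton protein Epb41 had 9564 CPM in PHZ and 9488 in bleeding (1.01, 0.986 to 1.03) and Bsg, which carries the Ok blood group, 1889 and 1983 (0.953, 0.907 to 1.0). In glycolysis and bisphosphoglycerate metabolism 10 of 17 genes were measured, with a median log2 ratio of 0.23. The 1 called gene was Pklr, red cell pyruvate kinase, with 38 UMIs in PHZ and 0 in bleeding, and the exact interval puts the ratio at 10.3 or more. It was in 35 PHZ cells, and its free RNA levels were 37.6 and 15.3 CPM.

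The ubiquitin system showed opposite directions for its abundant late members and for the proteasome subunits that were called. Of 53 genes 49 were measured, with a median log2 ratio of 0.32, 7 called higher and none lower. Of the 7, 6 are proteasome subunits, Psma2, Psma5, Psmb7, Psmc2, Psmc3 and Psmd11, with ratios from 1.85 to 3.34. The last is Uba1, the ubiquitin-activating enzyme (1.92, 1.60 to 2.32). In PHZ, Psma2 (364.0 against 276.9 CPM) and Uba1 (204.5 against 68.4) stood above their free RNA level. Psma5, Psmb7, Psmc2, Psmc3 and Psmd11 did not. The abundant genes were lower in PHZ: Ubb at 35550 and 41030 CPM (0.867, 0.857 to 0.876), the conjugating enzyme Ube2b at 6137 and 7792 (0.788, 0.767 to 0.808) and Ube2l6, which joins Isg15 to proteins, at 7240 and 7968 (0.909, 0.886 to 0.932). The sum of the list was 104200 and 116600 CPM (0.894, 0.888 to 0.900), again against the sign of the median. Ubb turned with gene number, with a ratio of 1.35 (1.33 to 1.36) under 300 genes.

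Mitophagy genes, which clear mitochondria from reticulocytes, had a median log2 ratio of 0.17 over 17 of 22 genes. Bnip3l, the mitophagy receptor of red cells, had 8342 CPM in PHZ and 9940 in bleeding (0.839, 0.820 to 0.858), Gabarapl2 6429 and 7386 (0.870, 0.848 to 0.893) and Map1lc3b 6963 and 7103 (0.980, 0.955 to 1.01). The 1 called gene, Gabarapl1, had 139.8 and 41.1 CPM (3.40, 2.59 to 4.51), over its free RNA levels of 53.0 and 15.7. Among 19 enucleation and chromatin genes, 16 were measured, with a median log2 ratio of -0.06, and Xpo7, a nuclear export factor of terminal erythroid cells (1122 and 676.9 CPM, 1.66, 1.54 to 1.79), and Gadd45a (2819 and 1680 CPM, 1.68, 1.60 to 1.76) were called higher. Xpo7 was lower in PHZ at 500 or more genes, at 0.881 (0.843 to 0.921). Malat1 was at 786.4 and 822.1 CPM (0.957, 0.886 to 1.03).

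Translation factors had a median log2 ratio of 0.17 over 29 of 30 genes, with 3 called higher and none lower. Eif2s2, the beta subunit of eIF2, had 185.4 CPM in PHZ and 38.8 in bleeding (4.78, 3.65 to 6.34), Eif5b 49.9 and 14.7 (3.40, 2.15 to 5.55) and Eif3c 110.2 and 40.6 (2.72, 2.05 to 3.64). These 3 lay below their free RNA levels in both libraries, at 362.2, 232.7 and 157.8 CPM in PHZ. Eif5b was at 2.02 in cells with at most 2 UMIs of other cell types, and Eif3c at 4.64 after background subtraction. The abundant factors moved less, with Eif5 at 12860 and 9916 CPM (1.30, 1.27 to 1.32), Pabpc1 at 10500 and 12760 (0.823, 0.807 to 0.840) and Tpt1 at 7544 and 8428 (0.895, 0.874 to 0.917). Under 300 genes Pabpc1 was at 0.400 (0.390 to 0.411).

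Antioxidant genes, which protect haemoglobin and membranes from oxidation, were higher in PHZ through much of the list. Of 35 genes 26 were measured, with a median log2 ratio of 0.50 beside 0.07, 22 with ratios over 1, 7 called higher and none lower. Gpx1, which removes peroxides with glutathione, had a median of 29 UMIs per PHZ cell and 19 per bleeding cell, or 23870 and 17360 CPM (1.37, 1.35 to 1.40). Tkt, transketolase of the pentose phosphate pathway, had 235.3 and 76.4 CPM (3.08, 2.52 to 3.79). The others called were the peroxiredoxins Prdx1, Prdx3 and Prdx6, thioredoxin Txn1, sulfiredoxin Srxn1 and Selenow, with ratios from 1.75 to 2.60. In PHZ, Prdx6 and Txn1 were not above their free RNA level, while the other called genes were. Prdx2, the main red cell peroxiredoxin, had 9365 and 8759 CPM (1.07, 1.05 to 1.09), and Gclm, of glutathione synthesis, 4469 and 5135 (0.870, 0.844 to 0.898). The ratio of the list's sum was 1.19, 1.20, 1.17 and 1.19 in the 4 bands of 50 genes, so it held at matched gene number.

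Respiratory chain genes of the nucleus and of the mitochondrion went apart. Of 48 nuclear-encoded genes 46 were measured, with a median log2 ratio of 0.32. Of these, 41 had ratios over 1, and 31 had intervals above 1, beside 680 of the 3085 genes compared (22%). Called higher were Ndufb9 of complex I (1340 CPM in PHZ and 450.7 in bleeding, 2.97, 2.74 to 3.23) and Uqcr10 of complex III (1.86, 1.54 to 2.24). In PHZ, Ndufb9 stood above its free RNA level and Uqcr10 did not. Of 13 mitochondrially encoded genes, 10 had ratios under 1, with a median log2 ratio of -0.16, and mt-Nd4l was called lower (0.393, 0.235 to 0.637). The abundant mt-Co1 had 10730 and 11010 CPM (0.974, 0.954 to 0.994). Free RNA held 3798 and 3610 CPM of mt-Co1.

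Signalling and control genes gave few calls. Of 19 genes of the erythropoietin response 6 were measured, with a median log2 ratio of 0.05, and Tfrc and Cish, a feedback inhibitor (42 UMIs in PHZ and 15 in bleeding, 2.94, 1.59 to 5.70), were called higher. The survival factor Bcl2l1 had 1835 and 1819 CPM (1.01, 0.959 to 1.06) and the kinase Pim1 583.2 and 549.4 (1.06, 0.969 to 1.16). Among 26 erythroid transcription factors 19 were measured, with a median log2 ratio of 0.01 and none called. Tfdp2, a partner of E2F factors, had 4206 and 5264 CPM (0.799, 0.774 to 0.825) and Foxo3 352.9 and 313.2 (1.13, 1.0 to 1.27). Of 20 hypoxia targets 3 were measured, with a median log2 ratio of -0.17. Of 16 red cell clearance and protection genes 8 were measured, with none called: Cd47, the signal against engulfment, had 570.3 and 498.9 CPM (1.14, 1.04 to 1.26), and Cd59a, which blocks complement, 87.5 and 138.1 (0.633, 0.511 to 0.783).

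Cell cycle genes gave few calls, and Mki67, Pcna and Ccnb1 were under their free RNA levels in both libraries. S phase genes had a median log2 ratio of 0.61 over 14 of 30 genes with none called, and G2 and M phase genes 0.80 over 17 of 31, with 1 called higher, Mki67 (1.86, 1.57 to 2.21). Ccnb1, below the level limit of the list, had 25 UMIs in PHZ and 4 in bleeding (6.55, 2.26 to 25.9). Mki67, which marks dividing cells, had 232.8 and 125.2 CPM, against 1464 and 715.3 in the free RNA barcodes, and Pcna 48.7 and 22.9 against 433.2 and 165.8. Ccnb1 was at 10.5 in cells with under 400 genes and 3.12 with 400 or more. The median of G2 and M genes reversed to -0.39 when free RNA was subtracted. Ube2c and Nusap1 were exceptions with levels above free RNA, at 1970 and 2331 CPM for Ube2c (0.845, 0.806 to 0.886) and a ratio of 0.899 (0.841 to 0.961) for Nusap1.

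Genes lower in PHZ were led by lymphocyte messages. The 14 with the largest bounds were Inpp4b, Gm2682, H2-Eb1, Ptprcap, Ltb, Cd74, Ly6d, Shisa5, Ifi27l2a, H2-Ab1, Cd79b, Cd79a, Cd52 and Arhgap15, and each was below its free RNA level in both libraries. Cd74, the invariant chain of MHC class II, had 106.5 CPM in PHZ cells and 347.9 in bleeding cells (0.306, 0.257 to 0.363), with 621.8 and 1660 in free RNA and a ratio of 0.526 in cells with at most 2 UMIs of other cell types. Under the same limit Ptprcap was at 0.311 against 0.205 in all chosen cells, and H2-Ab1 was at 0.598 against 0.324 with free RNA subtracted. Gm2682, at 0.193, was at 0.104 in cells with under 400 genes and 0.344 with 400 or more. The B cell receptor subunit Cd79a had 28.9 and 92.8 CPM (0.312, 0.22 to 0.434), with 162.1 and 401.5 in free RNA, and a ratio of 1.02 in cells with at most 2 UMIs of other cell types. That limit counts Cd79a and Cd74 themselves and removes 641 of 1275 PHZ cells and 1140 of 1478 bleeding cells, so it is no independent measure of these ratios. The same holds for the subtraction of free RNA, whose share was set from B cell genes that include Cd79a and Cd74. The 5 called genes above the free RNA level, picked after their values were seen, were Hagh, glyoxalase II (2126 and 3391 CPM, 0.627, 0.601 to 0.654), Rec114 (254.3 and 525.3, 0.484, 0.430 to 0.545), Pepd, Cbr1 and Mospd1.

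Markers of every other cell type summed to less than their free RNA level in both libraries. B cell markers summed to 505.6 CPM in PHZ cells and 2309 in bleeding cells (0.219, 0.203 to 0.236), which is 0.159 and 0.216 of their free RNA levels. T cell markers summed to 33.9 and 186.9 CPM, or 0.161 and 0.192 of free RNA, and neutrophil markers ran the other way at 1320 and 701.0 CPM, or 0.189 and 0.197. Monocyte or macrophage markers were at 0.177 and 0.186 of free RNA, plasma cell markers at 0.1597 and 0.208, dendritic cell markers at 0.274 and 0.228, and stromal markers at 0.0756 and 0.0741. The libraries differed more for NK markers, at 0.125 and 0.271, and for platelet markers, at 0.207 and 0.618, the last from 12 UMIs in PHZ and 11 in bleeding. All 8 B, 8 T and 7 neutrophil markers had a UMI in each library, while 2 of 5 platelet and 2 of 3 stromal markers had none in either. Per cell, B markers ran from 0 to 4 UMIs in PHZ and from 0 to 10 in bleeding, and neutrophil markers from 0 to 9 and from 0 to 5. Neutrophil alarmins S100a8 (487.1 and 230.3 CPM, 2.12, 1.87 to 2.39) and S100a9 (543.2 and 310.3, 1.75, 1.57 to 1.95) were called higher, at 2438 and 1198, and 2966 and 1609 CPM, in free RNA.

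**Figure D5:**
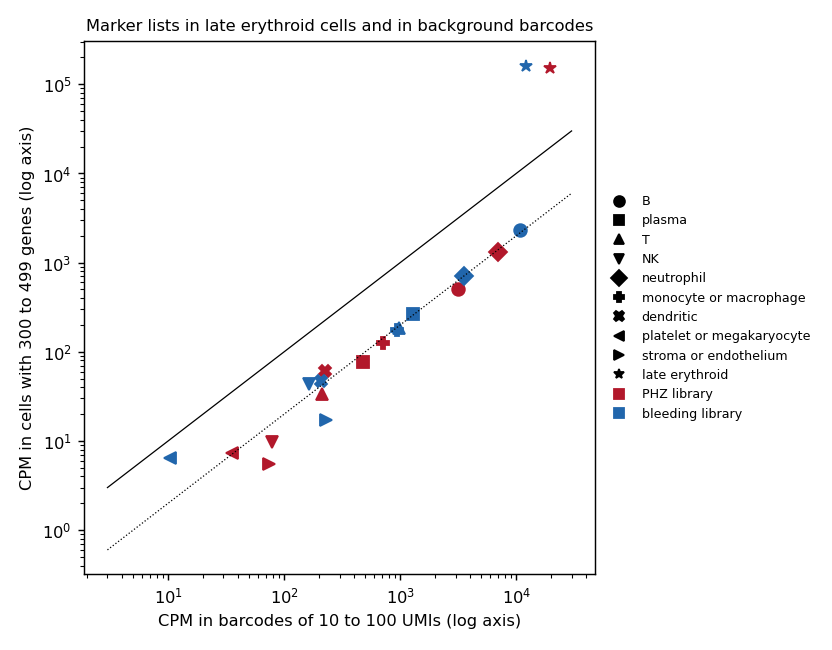
Summed level of each marker list in the chosen cells (vertical) against barcodes of 10 to 100 UMIs, taken as free RNA (horizontal), both in CPM on log axes, for the PHZ library (red) and the bleeding library (blue). The solid line is equality and the dotted line one part in 5; B and neutrophil markers lie near the dotted line in both libraries (0.159 and 0.189 in PHZ, 0.216 and 0.197 in bleeding), and late erythroid markers lie above the solid line (7.83 in PHZ, 13.4 in bleeding).

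MHC class I genes, which present peptides and are scarce on mature red cells, did not move together. Of 15 genes 9 were measured, with a median log2 ratio of -0.77 and 4 called lower: H2-K1 (65.9 CPM in PHZ and 176.9 in bleeding, 0.373, 0.296 to 0.466), Psmb8, H2-Q6 and H2-Q7. H2-K1 and H2-D1, and H2-Q6 and H2-Q7, are close relatives whose reads may be split unevenly. H2-K1, Psmb8 and H2-Q7 were under their free RNA levels, which for H2-K1 were 407.5 and 1185 CPM. H2-T23, above its own in both libraries, was higher in PHZ at 248.8 and 160.4 CPM (1.55, 1.33 to 1.82), and B2m, the shared light chain, had 457.6 and 403.1 (1.14, 1.02 to 1.26), or 1.71 with free RNA subtracted. The list's median turned to 0.73 when free RNA was subtracted and to 0.05 over members of at least 50 CPM. The part of free RNA in these differences was not tested in any other way.

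Matching on gene number kept the direction of the Bpgm, Mkrn1, Slc4a1 and Isg15 differences in every band. From 300 genes upward in bands of 50, with 183 to 439 PHZ cells and 115 to 733 bleeding cells in a band, Bpgm had ratios of 0.864, 0.842, 0.821 and 0.821. Mkrn1 had 0.897, 0.886, 0.916 and 0.867. Alas2 had 0.968 (0.941 to 0.995), 0.951 (0.922 to 0.981), 0.965 (0.929 to 1.003) and 0.996 (0.948 to 1.05), so its interval held 1 in the upper bands. Slc4a1 had 1.33, 1.36, 1.33 and 1.25, and Rexo2 3.04, 3.40, 3.22 and 3.58. Isg15 varied more, at 1.66, 1.76, 1.16 and 1.89. Tfrc had 4.30, 6.37, 5.79 and 3.98. Malat1 changed direction, from 0.804 and 0.801 in the lower bands to 1.12 and 1.53 in the upper ones, and 1 PHZ cell alone held 116 of the 1277 Malat1 UMIs.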

How the data were processed

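Live spleen cells were profiled with the 10x Genomics 3′ v3.1 kit, per the labels' protocols, in 1 PHZ and 1 bleeding library. The authors deposited whole-number UMI counts per gene for every barcode, 1608470 in PHZ and 1698351 in bleeding, with no cell filter or annotation. Cell Ranger 7.0.0 and mm10 are named per the submitters' processing notes; the annotation and the handling of introns and strand were not given in the sources used here.

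Cells were chosen by the stated counts alone. Of barcodes with 300 to under 500 genes, 1275 of 1432 in PHZ and 1484 of 1593 in bleeding met the haemoglobin limit. From these, the macrophage limit removed 0 PHZ and 6 bleeding barcodes and the mitochondrial limit none. No doublet caller was run. The chosen cells' UMIs were added up per library and scaled to the total without haemoglobin genes. Ratios carry exact conditional 95% intervals and shares exact binomial ones, neither of which includes variation between mice. A single library per group allowed no test. Genes were compared at 20 or more UMIs in the higher library and called when the interval bound passed 1.5-fold. B lymphocyte barcodes had 500 or more genes, at most 20% haemoglobin and at least 3 marker UMIs. Free RNA was measured in barcodes of 10 to 100 UMIs (62389 in PHZ, 72745 in bleeding).

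Named genes were the 14 largest bounds in each direction at 50 CPM or more outside haemoglobin, mitochondrial, ribosomal protein and antigen receptor genes; the 8 per direction against each neighbouring band; the 15 most abundant; and, from each list, the 4 with the most UMIs and those with a bound past 2-fold. Some genes that meet this rule are not reported here. Other called list members were named after their values were seen, to make up the counts. List medians cover members averaging 10 CPM or more. The members and lists were chosen with earlier results of these data known. Alternatives varied the cell limits, the scaling, the gene filter, free RNA and single cells; leaving out cells rich in heat shock RNA or with a barcode in both libraries, and weighting by gene number, were added after seeing the data. The calculations used Python 3.11.15, numpy 2.4.6, scipy 1.17.1, pandas 2.3.3 and matplotlib 3.10.9 and were tested on simulated data.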

Additional observations from a re-analysis of the deposited data

How the results depend on the processing

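No paired analysis was possible because each group had 1 library. The ratio of shares, 1.20 as reported, was 0.942 for cells with under 400 genes, 2.15 for 400 or more, 2.60 for cells with at most 2 UMIs of other cell types and 0.962 as a share of haemoglobin-rich barcodes. The 145 genes higher in PHZ became 57 with 400 or more genes, 70 with at most 2 UMIs of other cell types and 226 with free RNA subtracted, and ran from 57 to 226 over all alternatives. The 201 lower genes became 119 with under 400 genes, 38 with 400 or more, 32 with at most 2 UMIs of other cell types, 98 at a minimum of 50 UMIs and 54 with free RNA subtracted, and ran from 32 to 243. Narrower windows and the limit on other cell types leave fewer cells. Of the called genes, 58 higher and 29 lower were shared under that limit. A change of sign was counted only for called genes and for list medians larger in size than the counting error typical of their members. By this rule the medians that changed sign were MHC class I (0.73 with free RNA subtracted, 0.049 for members of 50 CPM or more), G2 and M phase (-0.39 with free RNA subtracted) and iron (0.30 for every member with a UMI). Sign changes of smaller medians were not counted. The log2 ratio of Cd79a was 0.032 with at most 2 UMIs of other cell types. For these sign changes the cause was not tested. Over 23 lists and 16 alternatives, 352 medians moved little, 8 moved and 4 changed sign. Over 159 named genes and 14 alternatives the numbers were 1848, 303 and 1. Genes that were not called changed sign too and were counted as moved. Among them, Ifitm3 went from a ratio of 1.64 to 0.882 in cells with 400 or more genes. Myb went from 1.70 to 0.361 in cells with at most 2 UMIs of other cell types. Scaling by the median of ratios shifted log2 ratios by 0.09 and gave 113 higher and 239 lower genes. Weighting bleeding cells to the PHZ gene numbers gave ratios with no interval. Depth limits the genes under 20 UMIs, which were left out of the reported counts; a minimum of 10 UMIs gave 156 higher and 243 lower genes.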

Other observations

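A few single values stood apart among the chosen cells and are given without explanation, having been picked after they were seen. Cdk5rap1, which modifies mitochondrial transfer RNAs, had 0 UMIs in PHZ cells and 43 in bleeding cells. The exact interval puts the ratio at 0.0939 or less. The gap was not particular to these cells: it had 1 UMI in PHZ and 31 in bleeding under 300 genes, and 2 and 36 at 500 or more. The embryonic globin Hbb-bh1 had 28 UMIs in 1 bleeding cell. Mitochondrially encoded messages were at least 20% of UMIs without haemoglobin in 5 PHZ cells and 11 bleeding cells, with highest shares of 52.2% and 54.4%. The interferon list reached at least 10% of UMIs without haemoglobin in 22 PHZ cells and 4 bleeding cells.

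Other genes called higher in PHZ and above the free RNA level included Apol11b, with 6120 CPM in PHZ cells and 3736 in bleeding cells (1.64), Gm32051 with 1291 and 592.9 (2.18), Cox6b2, a cytochrome oxidase subunit, with 899.8 and 353.7 (2.54), the dynein light chain Dynll1 with 843.1 and 408.4 (2.06), and S100a13 with 701.5 and 288.5 (2.43).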
